A study of Mus musculus with 24 samples.

Results

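The comparison described here is that of 6-month male mice lacking brain aromatase (bArKO) with their controls, in RNA from the hippocampus. Its members are the 6 libraries of the series that the labels give as 6 months old, XY and either bArKO or Control, with 3 libraries in each group, out of 24 libraries in all. Each library came from a different mouse, and the replicate number of a bArKO library does not link it to the control with that number. The libraries were made from poly(A) RNA with a stranded kit (TruSeq Stranded mRNA, after RNeasy purification) and sequenced on an Illumina HiSeq as 50-base single-end reads. Control mice were Arom fl/fl, with a floxed stretch of the aromatase gene that holds its starts of transcription and translation, on the C57BL/6J strain. The bArKO mice had the same floxed alleles and a Nestin-Cre transgene, which removes that stretch in cells of the neural lineage. Controls were littermates of matched age without Cre, so the transgene itself and the loss of aromatase cannot be told apart in these groups. The other 18 libraries, from females and from 24-month mice, are used only where a value of the 6-month males is set beside theirs.

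Total counts were 12054486, 11053253 and 11621054 in controls 1 to 3 and 10430271, 10874661 and 9918187 in bArKO 1 to 3. The number of genes with at least 1 count was 21753, 21672 and 22579 in the controls and 21251, 21794 and 21309 in the bArKO libraries. Control 3 had the most genes with a count, although control 1 had more counts in all. Taking 3 counts as the floor, the lowest level that could be told from 0 was 0.249, 0.271 and 0.258 counts per 1000000 (CPM) in the controls and 0.288, 0.276 and 0.303 CPM in the bArKO libraries, for counting error only. A CPM value in the text is a count over the library's total, scaled by the trimmed mean of M values (TMM), and is not corrected for gene length.

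Aromatase, the enzyme encoded by Cyp19a1, turns androgens such as testosterone into estrogens, and in rodents a part of the brain's estrogen is made by neurons and astrocytes themselves. Estrogens act through the nuclear receptors encoded by Esr1 and Esr2 and the membrane receptor encoded by Gper1, and the hippocampus, which forms memories of place and events, is a known site of their action on synapses. The dissected hippocampus borders the lateral ventricle with its choroid plexus, the thalamus, the meninges and white matter, and a dissection can carry some of each along.

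Cyp19a1 (ENSMUSG00000032274, chr9:54072601-54175394, GRCm39) had 2, 0 and 1 counts in controls 1 to 3 and 2, 0 and 0 counts in bArKO 1 to 3. All 6 libraries were under the floor of 3 counts, so at this depth a loss of the targeted transcript could not have been seen, and no fold change is given. The counts were made over whole genes and cannot show whether the floxed stretch was transcribed. Sex labels could be read from the counts. Xist, the RNA that silences an X chromosome in females, had 0, 0 and 1 counts in the controls and 2, 2 and 1 counts in the bArKO libraries. Ddx3y, a helicase gene of the Y chromosome, was at 46.9, 49.5 and 52.2 CPM in the controls and at 50.3, 55.3 and 46.3 CPM in the bArKO libraries. All 6 libraries thus had the pattern of males.

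No gene was called between the genotypes in the edgeR quasi-likelihood test at a Benjamini-Hochberg adjusted p under 0.05 and an absolute log2 fold change above 0.5, which was 0 of 15094 genes tested (0.0%). The smallest adjusted p of this edgeR test was 0.999, so every fold change in the text is that of a gene that did not pass in it. With every gene of at least 1 count kept, edgeR called 188 genes, 177 of them lower, and 174 of the 188 were among the 15094. These included Tmem63a, Ryr1, S1pr5, Gm42756 and Pcp4l1, described further on, and 107 of the 174 were at least 2 times higher in control 3 than in every other library. DESeq2 on the same counts also called 0 genes, with a smallest adjusted p of 0.493, for Tmem63a. At an unadjusted p under 0.05 edgeR had 200 genes higher in bArKO (1.33%) and 502 lower (3.33%). DESeq2, which kept all 30929 genes of at least 1 count, had 532 at that p, of which 404 were lower. Non-overlapping groups, where every bArKO library lies on the same side of every control, were found in 527 genes higher (3.49%) and 561 lower (3.72%). The median log2 fold change over all genes tested was 0.00024. Each ± value is the standard error of the edgeR fit, with 3 libraries a group.

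The marker lists describe which tissue and cell types each library held. A list's level is the mean over its members of log2(CPM + 0.5), and its summed level is the sum of their CPM. In bulk RNA, fewer cells of a type and less RNA per cell cannot be told apart, which holds for every list in the text. Of 41 lists with a tested member, 28 had a median log2 fold change that changed sign with some library left out, among them 24 of the 26 with an absolute median under 0.1.

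**Figure D1:**
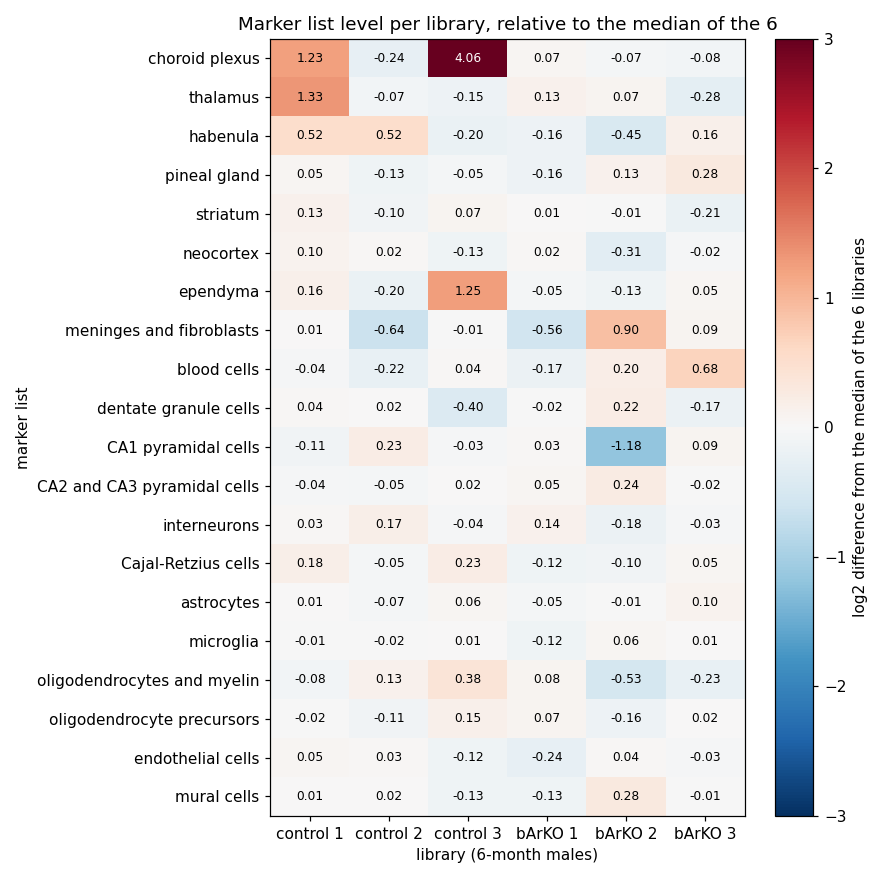
Level of 20 marker lists (y axis) in the 6 libraries (x axis), as the mean log2(CPM + 0.5) of a list's members minus the median of the 6 libraries, in colour. Control 3 is highest in choroid plexus and ependyma genes, control 1 in thalamus genes and bArKO 2 in meninges genes. In CA1 genes bArKO 2 is lowest.

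Choroid plexus genes stood highest in control 3. Their level was 2.74, 1.27 and 5.57 in controls 1 to 3 and 1.58, 1.44 and 1.43 in bArKO 1 to 3. The summed level was 990, 294.5 and 10480 CPM in the controls and 358.4, 272.1 and 313.1 CPM in the bArKO libraries. Control 3 was also over the highest of the 18 libraries outside this comparison, whose levels ran from 1.30 to 4.63 with a median of 2.25. Ttr was the most abundant gene of the list in controls 1 and 3 and Enpp2 in the other 4 libraries. The transporter gene Slco1a5 had 0 counts in control 2 and bArKO 3, and every other member had counts in all 6 libraries.

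Of the 22 choroid plexus members 21 were tested, and all 21 were lower in bArKO at an unadjusted p under 0.05, beside 3.33% of all genes. The groups did not overlap in 2 of them, Steap1 and Calml4, beside 3.72% of all genes, and in 21 of 21 the level in control 3 was at least 2 times that of every other library. Ttr encodes transthyretin, a carrier of thyroid hormone and retinol that the choroid plexus secretes. It was at 436, 28.5 and 6939 CPM in controls 1 to 3 and at 60.4, 53.0 and 63.2 CPM in bArKO 1 to 3. Control 2 was under all bArKO libraries, so the groups overlapped, and the log2 fold change was -5.39 ± 1.68. Without control 3 it was -1.99, and without controls 1 and 3 it was 1.05.

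Enpp2, which encodes autotaxin, the enzyme that makes lysophosphatidic acid, was at 415, 207 and 2637 CPM in the controls and at 224, 160 and 191 CPM in the bArKO libraries. Control 3 was far above the rest, control 1 was next and control 2 lay among the bArKO libraries, with a log2 fold change of -2.50 ± 0.78. The Klotho gene Kl was at 40, 31.1 and 228 CPM in the controls and at 32.8, 27.7 and 31.1 CPM in the bArKO libraries. Only control 3 stood apart, and the log2 fold change of -1.71 ± 0.64 was -0.22 without it. The prolactin receptor gene Prlr was at 10.8, 3.14 and 90.2 CPM in the controls and at 3.44, 3.39 and 3.81 CPM in the bArKO libraries. Again controls 3 and 1 were high and control 2 was at the level of the bArKO group, with a log2 fold change of -3.29 ± 1.09. Clic6, a chloride channel family gene, was at 16.8, 4.75 and 106 CPM in the controls and at 7.16, 4.58 and 6.28 CPM in the bArKO libraries. Controls 3 and 1 were again the highest, and the log2 fold change was -2.83 ± 0.88.

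The metalloreductase gene Steap1 was at 0.577, 0.269 and 10.4 CPM in the controls and at 0.0954, 0.0917 and 0.206 CPM in the bArKO libraries. Its groups did not overlap, but all 3 bArKO values and the lowest control value were at or under the floor of 3 counts. Over the 21 members the median log2 fold change was -3.29, and it was -0.99 without control 3, where no member kept an unadjusted p under 0.05. Without control 3, 318 genes were lower at that p (2.08%) and 309 higher (2.02%) of 15267 tested. Leaving out control 1 instead gave a median of -3.72, and leaving out controls 1 and 3 together gave 0.16. The part of these markers in other differences was not tested beyond the fits with those libraries left out or with the levels of the choroid plexus and thalamus lists as covariates.

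**Figure D2:**
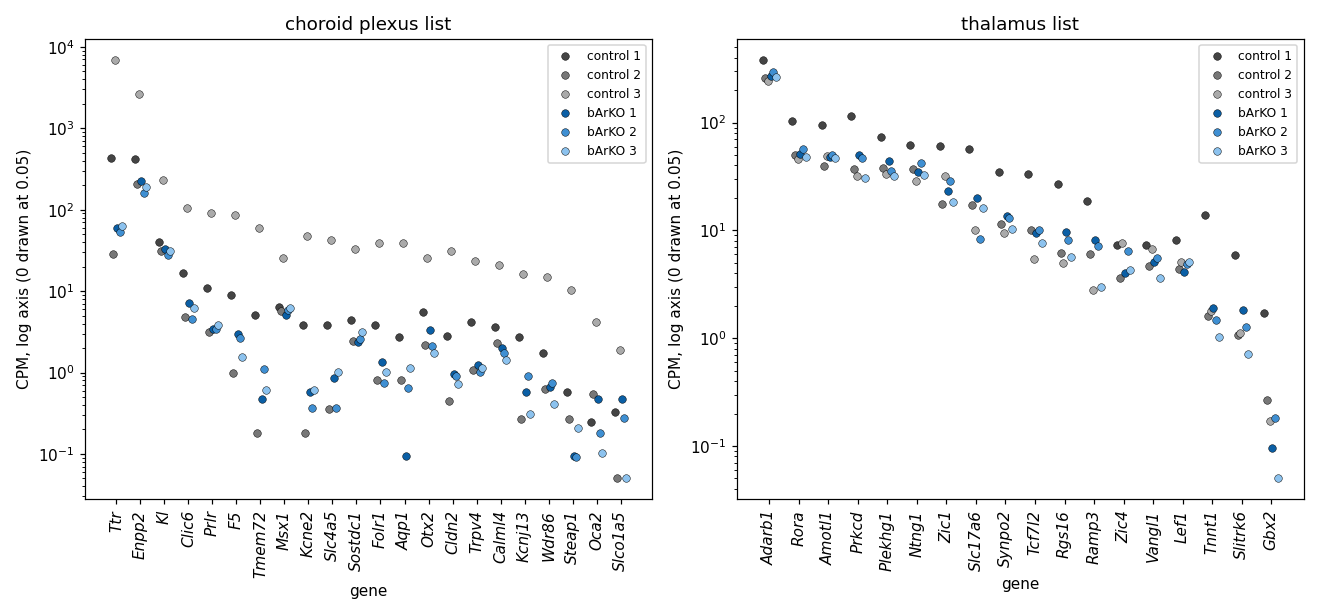
CPM on a log axis (y) of choroid plexus and thalamus genes (x) in each of the 6 libraries, shown as points by genotype with 0 drawn at 0.05. Choroid plexus genes are highest in control 3, and thalamus genes are highest in control 1.

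Ependymal cells, whose motile cilia line the ventricle, had marker levels of 1.88, 1.52 and 2.96 in controls 1 to 3 and 1.67, 1.59 and 1.77 in bArKO 1 to 3. The summed level was 38.56, 31.67 and 93.53 CPM in the controls and 31.89, 31.12 and 34.58 CPM in the bArKO libraries, with Foxj1 the most abundant gene in each. Control 3 stood apart from the other 5 libraries, which lay close together. Of 10 members 8 were tested and 8 were lower in bArKO, 2 at an unadjusted p under 0.05 beside 3.33% of all genes, and 7 of 8 were at least 2 times higher in control 3 than in any other library. Foxj1, the transcription factor that turns on the genes of motile cilia, was at 14.4, 12.5 and 34.5 CPM in the controls and at 12.5, 11.2 and 12 CPM in the bArKO libraries. Its groups overlapped and its log2 fold change was -0.78 ± 0.31, or -0.18 without control 3. Ccdc153, a coiled-coil gene of ciliated cells, was at 6.18, 4.84 and 15.4 CPM in the controls and at 3.05, 4.77 and 5.45 CPM in the bArKO libraries. Control 3 was alone in being high. The list's median log2 fold change was -0.71, and -0.055 without control 3.

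A list of motile cilia genes was added after the values were seen, since many of the genes high in control 3 were of this kind. Its 54 members summed to 197.4, 197.8 and 433.7 CPM in controls 1 to 3 and to 186.2, 176.5 and 189.9 CPM in bArKO 1 to 3. The counts that follow are a description only, since the list was chosen for its level in control 3. Of the 50 tested 49 were lower in bArKO, 11 at an unadjusted p under 0.05 beside 3.33% of all genes, and 23 were at least 2 times higher in control 3 than in every other library, beside 226 of all 15094 genes. The groups did not overlap in 5 of them, beside 3.72% of all genes, and the median log2 fold change of -0.73 was -0.057 without control 3. Spag17, a gene of the central apparatus of the cilium, was at 1.07, 0.896 and 1.97 CPM in the controls and at 0.477, 0.275 and 0.103 CPM in the bArKO libraries. Every bArKO library was under every control, with bArKO 2 and 3 at or under the floor. Its log2 fold change was -2.14 ± 0.54 and -1.73 without control 3. Ccdc96, which encodes a protein of cilia, was at 2.80, 3.41 and 4.46 CPM in the controls and at 1.62, 1.28 and 1.54 CPM in the bArKO libraries. These groups did not overlap either, and the log2 fold change of -1.26 ± 0.34 was -1.06 without control 3.

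Control 1 was the library highest in thalamus genes. Their level was 4.94, 3.53 and 3.45 in controls 1 to 3 and 3.73, 3.68 and 3.32 in bArKO 1 to 3, and the highest of the 18 libraries outside this comparison was at 4.08. The summed level was 1119, 544.3 and 516.9 CPM in the controls and 612.4, 624.1 and 525.8 CPM in the bArKO libraries, with Adarb1 the most abundant gene in each. Of 18 members 17 were tested and all 17 were lower in bArKO. Only Tnnt1 had an unadjusted p under 0.05, beside 3.33% of all genes lower. The homeobox gene Gbx2, which was not tested, was at 1.73 CPM in control 1 and had 0 counts in bArKO 3. In 8 of 17 members the level in control 1 was at least 2 times that of every other library. The median log2 fold change was -0.53, and without control 1 it was 0.13, with 5 of 17 members lower. When control 3 was left out the median was -0.74, and 10 members had an unadjusted p under 0.05, beside 2.08% of all genes. The part of thalamus tissue in the values of other genes was not tested beyond the fits without control 1 and those with the thalamus level as a covariate.

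Tnnt1, the slow skeletal troponin T gene, was at 13.9, 1.61 and 1.80 CPM in controls 1 to 3 and at 1.91, 1.47 and 1.03 CPM in bArKO 1 to 3. Control 1 stood apart and the other controls overlapped the bArKO group. The log2 fold change of -1.97 ± 0.66 was -0.21 without control 1. Slc17a6, which encodes the vesicular glutamate transporter of thalamic neurons, was at 57.3, 17.1 and 10 CPM in the controls and at 20.1, 8.34 and 16.1 CPM in the bArKO libraries. Without control 1 the log2 fold change of -0.93 ± 0.49 turned to 0.13. The homeobox gene Shox2 was at 14.5, 0.896 and 0.343 CPM in the controls and at 1.34, 2.38 and 1.65 CPM in the bArKO libraries. Controls 2 and 3 were under all bArKO libraries, so its log2 fold change of -1.56 ± 0.98 was 1.53 without control 1. Vipr2, a receptor gene for vasoactive intestinal peptide, was at 5.28, 1.08 and 0.686 CPM in the controls and at 0.382, 0.825 and 0.103 CPM in the bArKO libraries. Only control 1 was well apart, with a log2 fold change of -2.38 ± 0.79, or -0.96 without it.

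Shox2 and Vipr2 were chosen for their excess in control 1 and are not on the thalamus list. The most abundant members differed less than Tnnt1, Slc17a6, Shox2 and Vipr2. Adarb1, an enzyme that edits adenosines in RNA, was at 382, 257 and 243 CPM in the controls and at 272, 294 and 267 CPM in the bArKO libraries. The nuclear receptor gene Rora was at 104, 49.5 and 45.6 CPM in the controls and at 51.2, 57.3 and 47.9 CPM in the bArKO libraries. Prkcd, a protein kinase C gene, was at 115, 36.9 and 32.1 CPM in the controls and at 50.4, 46.8 and 30.3 CPM in the bArKO libraries. Control 1 was the highest in each, the other 5 libraries overlapped in Rora and Prkcd, and in Adarb1 controls 2 and 3 were under all bArKO libraries. Their log2 fold changes were -0.084 ± 0.14, -0.35 ± 0.24 and -0.53 ± 0.41, and without control 1 they were 0.15, 0.13 and 0.31. Amotl1 and Plekhg1 were also highest in control 1, at 94.5 and 73.0 CPM in control 1 and at no more than 50.5 and 44.0 CPM in any other library.

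No tested member of the habenula, striatum and neocortex lists had an unadjusted p under 0.05. Of 10 habenula members 8 were tested and 6 were lower in bArKO, with a median log2 fold change of -0.84. Most were at low levels. Gpr151, a receptor gene of the habenula, was at 2.06, 1.25 and 0.943 CPM in the controls and at 0.763, 0.0917 and 0.823 CPM in the bArKO libraries. It was the only tested member whose groups did not overlap, beside 3.72% of all genes on the lower side. With a library left out the list's median was -0.60, -0.46 and -1.14 for controls 1 to 3 and -0.71, -0.52 and -1.60 for bArKO 1 to 3. The 6 pineal genes were too low for the test of 15094 genes. Their sum was 1.42, 0.81 and 0.853 CPM in the controls and 0.681, 1.47 and 2.14 CPM in the bArKO libraries. Striatum and neocortex markers had median log2 fold changes of -0.051 and -0.091 over 8 and 10 tested members.

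The library bArKO 2 was highest in genes of the meninges and fibroblasts. The level of these genes was 3.04, 2.38 and 3.01 in controls 1 to 3 and 2.46, 3.92 and 3.11 in bArKO 1 to 3, and their sum was 146.6, 96.19 and 145.2 CPM in the controls and 95.49, 270.3 and 158.0 CPM in the bArKO libraries. Dcn was the most abundant gene in all but bArKO 2, where it was Col1a2, and no member had 0 counts. The highest of the 18 libraries outside this comparison, a control of the 24-month males, was over bArKO 2. All 15 members were tested, and 14 were higher in bArKO, for a median log2 fold change of 0.49. Without bArKO 2 the median was -0.043 and 8 of 15 were lower. Fmod, a proteoglycan gene of connective tissue, was at 10.2, 5.55 and 11 CPM in the controls and at 6.87, 30.8 and 15.6 CPM in the bArKO libraries. The retinoic acid binding protein gene Crabp2 was at 1.48, 0.538 and 1.71 CPM in the controls and at 1.24, 3.58 and 2.57 CPM in the bArKO libraries. These 2 genes had an unadjusted p under 0.05, beside 1.33% of all genes, bArKO 1 lay among the controls in each, and log2 fold changes of 0.99 ± 0.40 and 0.97 ± 0.41 were 0.33 and 0.59 without bArKO 2. The part of meningeal tissue in other differences was not tested beyond the fits without bArKO 2 and the fit with the meninges level as a covariate.

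The 3 genes most in excess in bArKO 2 alone were Capn11, Cdh1 and Prg4. Capn11, a calpain gene, was at 1.24, 0 and 0.171 CPM in the controls and at 0.0954, 6.05 and 1.65 CPM in the bArKO libraries. The E-cadherin gene Cdh1 was at 0.907, 0.806 and 1.11 CPM in the controls and at 0.668, 5.50 and 0.926 CPM in the bArKO libraries. Prg4, which encodes lubricin, was at 0.989, 1.97 and 1.46 CPM in the controls and at 0.859, 6.51 and 1.75 CPM in the bArKO libraries. Outside bArKO 2 the groups overlapped in each. Capn11, the only one at an unadjusted p under 0.05, had a log2 fold change of 2.42 ± 1.07, which was 0.81 without bArKO 2 and 4.73 without control 1. The log2 fold changes of Cdh1 and Prg4 were 1.33 ± 0.70 and 1.06 ± 0.55, and -0.25 and -0.18 without bArKO 2.

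CA1 pyramidal cells, the output neurons of the hippocampus, had low marker levels in the same library. The list was at 5.48, 5.81 and 5.56 in the controls and at 5.62, 4.40 and 5.68 in the bArKO libraries, while the lowest of the 18 libraries outside this comparison was at 5.19. Its summed level was 601.3, 757.8 and 630.7 CPM in the controls and 645.6, 282.9 and 681.0 CPM in the bArKO libraries, with Mpped1 the most abundant gene in each. All 8 members were lower in bArKO, 0 of them at an unadjusted p under 0.05, and 4 of 8 were at least 2 times lower in bArKO 2 than in any other library. The receptor gene Fibcd1 was at 139, 172 and 148 CPM in the controls and at 143, 68.1 and 147 CPM in the bArKO libraries. Wfs1, an endoplasmic reticulum gene used as a marker of CA1, was at 151, 143 and 94.5 CPM in the controls and at 137, 48.0 and 113 CPM in the bArKO libraries. In each the other bArKO libraries lay among the controls. The list's median log2 fold change was -0.33, and -0.016 without bArKO 2.

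The remaining libraries had few genes that were high in them alone, and more that were low. By the 2-times rule, 226 of 15094 genes were high in control 3 alone, 24 in control 1, 17 in bArKO 2, 6 in control 2, 4 in bArKO 1 and 3 in bArKO 3. Genes low in a single library by the same rule were 69 in bArKO 2, 55 in bArKO 1, 45 in bArKO 3, 38 in control 1, 34 in control 2 and 20 in control 3. Gh, the growth hormone gene of the pituitary, had 18, 0 and 65 counts in the controls and 168, 0 and 0 counts in the bArKO libraries. It was thus found in 3 libraries of 6, and bArKO 1 held the most. In bArKO 3 the neutrophil gene S100a9 was high, with 1.48, 1.17 and 1.37 CPM in the controls and 0.763, 0.733 and 3.39 CPM in the bArKO libraries. The hemoglobin gene Hbb-bs was highest in the same library, at 45.8, 45.9 and 64.0 CPM in the controls and at 49.2, 77.4 and 95.7 CPM in the bArKO libraries. The alpha globin genes Hba-a1 and Hba-a2 were highest in bArKO 2, at 16.1 and 9.17 CPM, with bArKO 3 next at 15.3 and 8.85 CPM. Reads of near-identical globin copies cannot be assigned with certainty. Of the 7 blood members 6 were tested, and all 6 were higher in bArKO, 0 at an unadjusted p under 0.05. Control 2 had the kinetochore gene Spc24 at 1.97 CPM, against 0.989 and 1.11 CPM in controls 1 and 3 and 0.954, 0.917 and 0.514 CPM in the bArKO libraries.

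The 3 genes with the largest excess in control 3 were Steap1, given above, Cdh3 and Prr32. The cadherin gene Cdh3 was at 0.247, 0.179 and 5.83 CPM in the controls and at 0.286, 0 and 0.103 CPM in the bArKO libraries. Prr32 was at 0.742, 0.179 and 12.6 CPM in the controls and at 0.573, 0.550 and 0.103 CPM in the bArKO libraries. Both were near the floor outside control 3. Over all genes, 205 had an absolute log2 fold change above 1. In 118 of them, all lower in bArKO, leaving out control 3 brought the log2 fold change to less than 0.5 of its size, and leaving out any other library did so in at most 6.

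**Figure D3:**
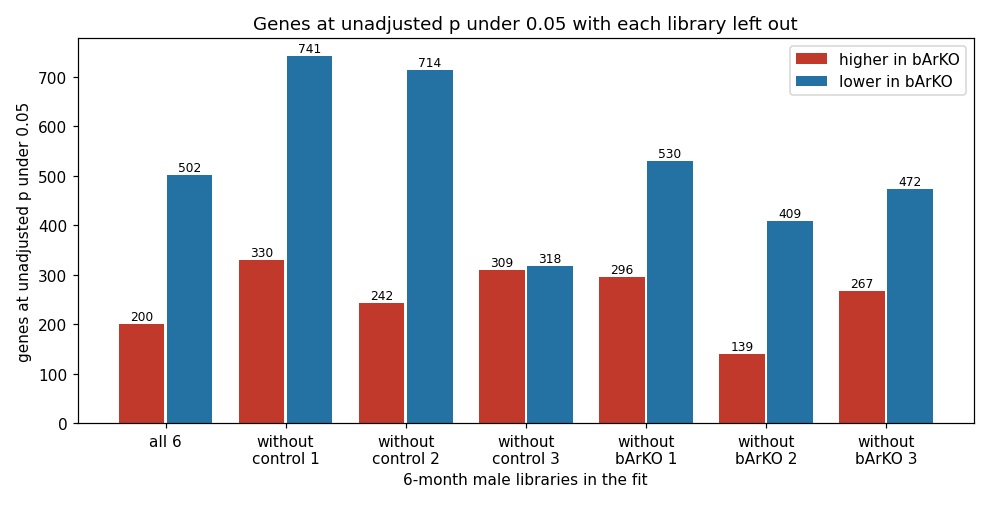
Number of genes at an unadjusted p under 0.05 (y axis), higher and lower in bArKO as bars of separate colour, with all 6 libraries and with each library left out (x axis). The excess of lower over higher genes, 502 against 200, is gone without control 3, where 318 are lower and 309 higher.

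Counts of genes at an unadjusted p under 0.05 moved with the library left out. Without control 1 there were 741 lower (4.83%) and 330 higher (2.15%) of 15350 tested. Without bArKO 2 there were 409 lower (2.66%) and 139 higher (0.903%) of 15389. Leaving out controls 1 and 3 together gave 303 lower (1.92%) and 345 higher (2.19%) of 15788, and the 2 covariates gave 380 lower (2.52%) and 300 higher (1.99%) of 15094. Of the 502 lower genes 162 were still at that p without control 3, against 398 without control 1 and 246 without bArKO 2. An unadjusted p under 0.05 in the fit of all libraries and in each of the 6 fits with a library left out was found in 64 lower genes (0.424%) and 23 higher genes (0.152%). The only gene to pass the adjusted threshold in any of these fits was Pcp4l1, which without control 2 had a log2 fold change of -0.73 and an edgeR Benjamini-Hochberg adjusted p of 0.00398.

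**Figure D4:**
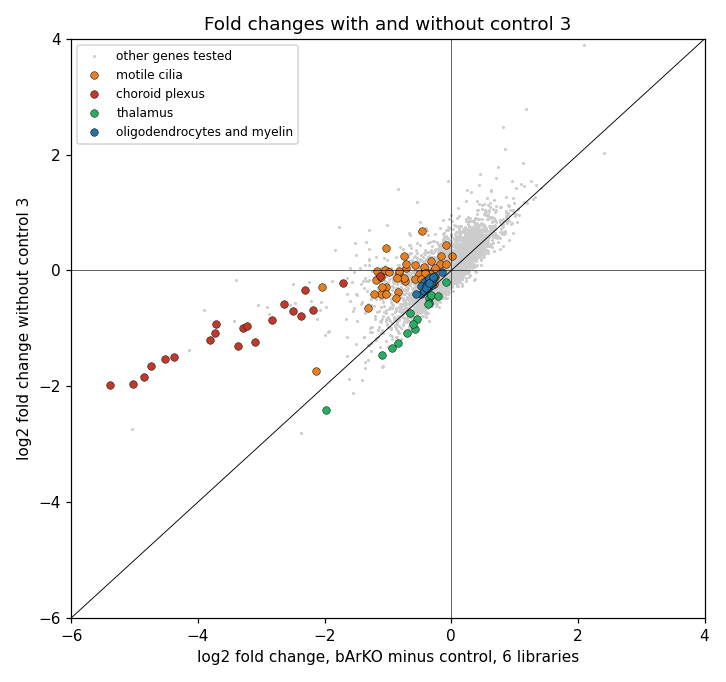
Log2 fold change of bArKO against control without control 3 (y axis) against that with all 6 libraries (x axis), 1 point per gene tested. Motile cilia, choroid plexus, thalamus and oligodendrocyte genes are coloured. Choroid plexus genes have a median of -3.29 with control 3 and of -0.99 without it, and myelin genes have -0.35 and -0.24.

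Myelin genes were lower in bArKO, and their median fold change was negative whichever library was left out. Oligodendrocytes wrap axons in myelin, and their 18 marker genes were all tested and all lower, 13 of them at an unadjusted p under 0.05, beside 3.33% of all genes. The groups did not overlap in 1, Tspan2, beside 3.72% of all genes. The list's level was 6.51, 6.72 and 6.97 in controls 1 to 3 and 6.67, 6.06 and 6.36 in bArKO 1 to 3. The summed level was 7144, 7977 and 10380 CPM in the controls and 8133, 5066 and 6437 CPM in the bArKO libraries, with Mbp the most abundant gene in each. Thus bArKO 2 and 3 were under all controls, while bArKO 1 lay between controls 1 and 2 in level and between controls 2 and 3 in sum. Levels in the 18 libraries outside this comparison ran from 6.40 to 7.19, so bArKO 2 and 3 were also under all of those. The median log2 fold change was -0.35.

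Regulatory sequence was read for myelin genes because all 18 members were lower with all libraries and their median was negative with each library left out. Of the 18 members, 6 (33.3%) had the letters ACAAAG, which the oligodendrocyte factor SOX10 is known to bind, in the 250 bases before the start of their canonical transcript, on either strand, and 15.9% of all 21770 windows of that length had them. The letters CTGGNAC, with any base at N, were searched for as a site of the myelin regulatory factor MYRF. They were in 4 members (22.2%) and in 16.1% of all windows, and MYRF need not bind every base at N. The windows of Cnp and Myrf, which are not all that had both, are written 5' to 3' along the gene's own strand, in build GRCm39, with matches to either motif on either strand in capitals. Cnp is at chr11:100465480-100465729 on the plus strand and Myrf at chr19:10218162-10218411 on the minus strand.
Cnp: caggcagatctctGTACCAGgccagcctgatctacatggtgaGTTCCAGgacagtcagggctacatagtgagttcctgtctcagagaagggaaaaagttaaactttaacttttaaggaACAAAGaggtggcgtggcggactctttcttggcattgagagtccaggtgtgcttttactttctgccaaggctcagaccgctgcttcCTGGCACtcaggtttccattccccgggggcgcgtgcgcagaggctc
Myrf: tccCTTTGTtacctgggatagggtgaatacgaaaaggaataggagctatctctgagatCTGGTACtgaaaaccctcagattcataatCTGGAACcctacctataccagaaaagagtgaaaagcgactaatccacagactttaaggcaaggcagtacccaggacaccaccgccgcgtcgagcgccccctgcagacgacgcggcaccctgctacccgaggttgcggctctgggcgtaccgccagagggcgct
A match of letters is a description only and shows no binding. Repeats were not masked. Each match of Cnp and Myrf was searched for together with 6 bases on each side. Before the ACAAAG match of Myrf, only the 3 bases that the window holds were used. In this exact form each was in only 1 of the 21770 windows, its own. The rest of the genome was not searched, and an exact search cannot find copies that differ in a base. Of the 22 choroid plexus genes 0 had TAATCC, which the factor OTX2 binds, against 7.0% of all windows.

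Mal, a proteolipid gene of compact myelin, was at 257, 297 and 318 CPM in controls 1 to 3 and at 273, 162 and 190 CPM in bArKO 1 to 3. Only bArKO 1 lay among the controls, and the log2 fold change was -0.48 ± 0.15. Ugt8a, the enzyme that makes galactocerebroside, was at 60.7, 71.4 and 86.5 CPM in the controls and at 62.8, 44.6 and 58.1 CPM in the bArKO libraries. Here too bArKO 1 was just over control 1, and the log2 fold change was -0.40 ± 0.13. The tetraspanin gene Tspan2 was at 124, 125 and 144 CPM in the controls and at 123, 83.8 and 101 CPM in the bArKO libraries. Control 1 and bArKO 1 were all but equal. These 3 were the members that had an unadjusted p under 0.05 with all libraries and with each library left out.

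Cnp, which encodes the phosphodiesterase of myelin, was at 319, 367 and 389 CPM in the controls and at 344, 238 and 268 CPM in the bArKO libraries. Mbp, the basic protein of myelin, was at 3173, 3515 and 4951 CPM in the controls and at 3687, 2333 and 3111 CPM in the bArKO libraries. In both genes bArKO 1 was inside the range of the controls and bArKO 2 and 3 were under it. Mog, a glycoprotein of the outer myelin surface, was at 46.7, 58.2 and 67.7 CPM in the controls and at 57.4, 37.1 and 41.0 CPM in the bArKO libraries. Myrf, the gene of the factor itself, was at 70.7, 79.2 and 84.7 CPM in the controls and at 78.5, 50.1 and 60.9 CPM in the bArKO libraries. In Mog and Myrf, too, bArKO 1 was inside that range and the other bArKO libraries were under it.

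Leaving out a library changed the size of the myelin difference. The median log2 fold change was -0.24 without control 3, -0.22 without bArKO 2 and -0.31 without controls 1 and 3, and the members at an unadjusted p under 0.05 were 5 without control 3 and 4 without bArKO 2, beside 2.08% and 2.66% of all genes lower in those fits. All 18 were lower without control 3, and 17 without bArKO 2. With the choroid plexus and thalamus levels as covariates the median was -0.36, with 11 members at that p, beside 2.52% of all genes. With the meninges level added as a covariate, an alternative chosen after seeing the data, it was -0.13. Leaving out the 3 libraries highest in choroid plexus, thalamus and meninges, also chosen after seeing the data, gave -0.20. Control 3, the highest in myelin genes, was also the highest in choroid plexus genes, and bArKO 2, the lowest, was the highest in meninges and the lowest in CA1 genes. How much white matter each dissection held was not tested.

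**Figure D5:**
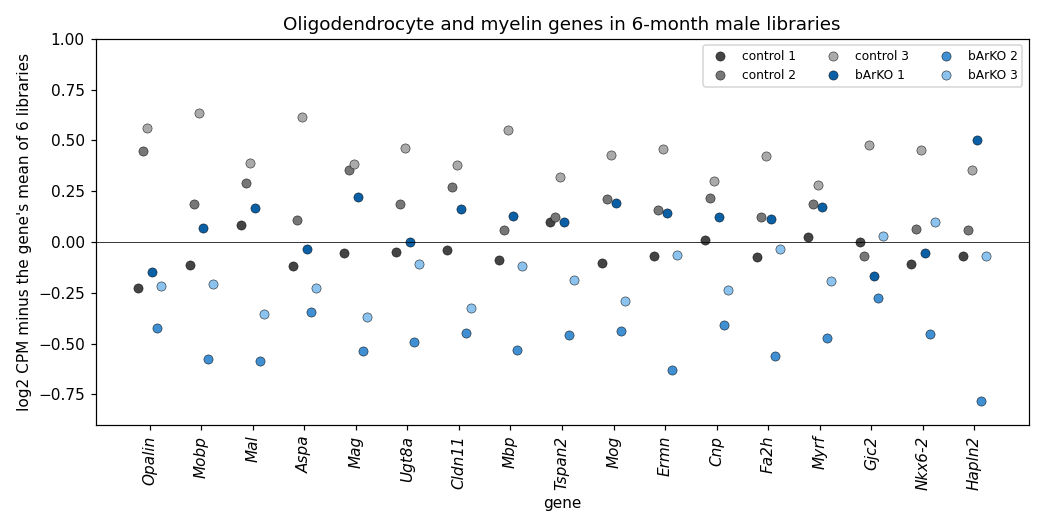
Log2 CPM minus the gene's mean over the 6 libraries (y axis) for 17 oligodendrocyte and myelin genes (x axis), 1 point per library by genotype. In most genes bArKO 2 and 3 lie lowest and control 3 highest, with bArKO 1 among the controls.

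Oligodendrocyte precursors, the dividing cells that give rise to oligodendrocytes, had markers in both directions. Their 10 markers had a median log2 fold change of -0.013, with 5 lower and 3 of those at an unadjusted p under 0.05, beside 3.33% of all genes. Without control 3 the count at that p was 0, and without bArKO 2 it was 1, beside 2.08% and 2.66% of all genes lower in those fits. Pdgfra, the growth factor receptor gene of the precursors, was at 71.5, 70.1 and 73.1 CPM in the controls and at 64.0, 64.2 and 64.0 CPM in the bArKO libraries. The groups did not overlap and each was narrow, with a log2 fold change of -0.16 ± 0.064. Sox10, which is active in precursors and mature cells, was at 43.5, 46.7 and 56.1 CPM in the controls and at 44.3, 35.8 and 41.1 CPM in the bArKO libraries. As in the myelin genes, bArKO 1 was inside the range of the controls, and the log2 fold change of -0.27 ± 0.11 was -0.16 without control 3.

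The genes with the smallest p among those whose groups did not overlap were chosen by rule, 10 in each direction, outside the lists of neighbouring tissue. Since the choice fixes their direction and separation, these say nothing of how stable the genes are, and none had an edgeR Benjamini-Hochberg adjusted p under 0.999 in the test of 15094 genes. With every gene of at least 1 count kept, Ryr1 and Gjb2 of the higher ones passed, and of the lower ones all but E130102H24Rik and Gm57461. That setting also called Ttr, Gh and Capn11, whose groups overlapped, so passing in it does not show that the groups differ. Among the higher ones, Ryr1, a channel gene that releases calcium from stores inside the cell, was at 8.66, 9.77 and 9.34 CPM in the controls and at 13.9, 14 and 13.1 CPM in the bArKO libraries. Both groups were tight and well apart, with a log2 fold change of 0.56 ± 0.12. Popdc1, which encodes a membrane protein that binds cyclic AMP, was at 3.46, 3.14 and 3.94 CPM in the controls and at 6.11, 5.59 and 5.35 CPM in the bArKO libraries. Its log2 fold change was 0.69 ± 0.18. Gjb2, the gap junction gene of the meninges, was at 10.8, 8.06 and 9.94 CPM in the controls and at 10.9, 20.6 and 14.8 CPM in the bArKO libraries. The highest value was that of bArKO 2, and the log2 fold change of 0.68 ± 0.19 was 0.42 without it.

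Several of the higher genes were at low levels. The diacylglycerol kinase gene Dgkk was at 1.07, 0.448 and 0.771 CPM in the controls and at 1.91, 1.10 and 3.29 CPM in the bArKO libraries. Ubash3a, a regulator of T cell receptor signalling, was at 0.907, 0.358 and 0.6 CPM in the controls and at 1.43, 1.28 and 1.65 CPM in the bArKO libraries. Cdca8, a gene of the chromosomal passenger complex of dividing cells, was at 0.659, 0.538 and 0.686 CPM in the controls and at 1.24, 1.10 and 1.13 CPM in the bArKO libraries. Counts of these 3 genes ran from 4 to 13 in the controls and from 11 to 32 in the bArKO libraries, and the log2 fold changes were 1.42 ± 0.41, 1.19 ± 0.40 and 0.87 ± 0.32. Tlr9, a receptor for DNA rich in unmethylated CpG, was at 1.48, 1.34 and 1.80 CPM in the controls and at 2.48, 2.93 and 2.16 CPM in the bArKO libraries. The tubulin gene Tuba8 was at 4.62, 5.02 and 4.63 CPM in the controls and at 8.40, 7.33 and 5.04 CPM in the bArKO libraries. For Tuba8, bArKO 3 was all but level with control 2. Bcl2l15 and the unnamed transcript Gm43328 were the other 2, with log2 fold changes of 1.25 ± 0.48 and 1.15 ± 0.44.

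Among the lower ones, Tmem63a (ENSMUSG00000026519), a channel gene opened by membrane stretch and active in oligodendrocytes, was at 28.4, 30.4 and 33.8 CPM in the controls and at 23.6, 18.2 and 22.2 CPM in the bArKO libraries. The lowest control was over the highest bArKO library, and the log2 fold change was -0.53 ± 0.11. S1pr5, the sphingosine 1-phosphate receptor gene of oligodendrocytes, was at 14, 15.9 and 16.8 CPM in the controls and at 11.2, 10.5 and 10.8 CPM in the bArKO libraries. In both of these genes bArKO 1 was under the controls, unlike in most of the myelin list. Pcp4l1, a relative of the calmodulin regulator PCP4, was at 79.1, 53.3 and 83.8 CPM in the controls and at 44.4, 49.9 and 52.7 CPM in the bArKO libraries. Control 2 was close to the bArKO group, and the log2 fold change of -0.56 ± 0.13 was -0.12 without controls 1 and 3.

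Arhgap18, which encodes a GTPase-activating protein, was at 8.66, 9.41 and 13.7 CPM in the controls and at 5.34, 7.52 and 6.79 CPM in the bArKO libraries. Fam222a was at 6.10, 7.35 and 10.5 CPM in the controls and at 4.58, 4.77 and 4.73 CPM in the bArKO libraries. Control 3 was the highest in both, and the log2 fold changes of -0.69 ± 0.18 and -0.76 ± 0.21 were -0.46 and -0.52 without it. The unnamed transcript Gm42756 was at 6.35, 7.97 and 8.83 CPM in the controls and at 4.96, 3.48 and 3.29 CPM in the bArKO libraries. It had the smallest p of the test across all genes, with a log2 fold change of -0.97 ± 0.19. The noncoding transcripts E130102H24Rik and Gm57461 had log2 fold changes of -1.10 ± 0.28 and -0.88 ± 0.24, and Spag17 and Ccdc96 were the cilia genes given earlier.

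Estrogen receptors were low in all libraries, with no difference found. Esr1 was at 1.15, 2.06 and 2.66 CPM in the controls and at 2.00, 1.74 and 2.47 CPM in the bArKO libraries. Its groups overlapped, with a log2 fold change of 0.081 ± 0.34. Esr2 had 0, 0 and 2 counts in the controls and 1, 0 and 1 counts in the bArKO libraries, under the floor in all. Gper1 was at 2.31, 2.78 and 2.14 CPM in the controls and at 2.48, 2.93 and 2.88 CPM in the bArKO libraries, also overlapping.

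Among steroid receptors as a list, 17 of 18 were tested, with a median log2 fold change of 0.0035. Esrrg, an orphan receptor related to the estrogen receptors, was the only one at an unadjusted p under 0.05, beside 3.33% of all genes lower. It was at 18.5, 18.8 and 16.7 CPM in the controls and at 15.4, 14.1 and 13.5 CPM in the bArKO libraries. All bArKO libraries were under all controls, and the log2 fold change was -0.33 ± 0.10. Esrra, of the same family, was at 44.3, 43.7 and 45.3 CPM in the controls and at 42.2, 34.6 and 41.9 CPM in the bArKO libraries. Its groups did not overlap either, but bArKO 1 and 3 were close to the controls, and the log2 fold change of -0.17 ± 0.079 was -0.079 without bArKO 2.

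Enzymes of steroid synthesis and breakdown were mostly low. Of 22 members 14 were tested, 10 were higher in bArKO, 0 at an unadjusted p under 0.05, with a median log2 fold change of 0.13. Among those tested, groups did not overlap in 2, Star and Cyp7b1, both on the higher side, beside 3.49% of all genes. The cholesterol carrier gene Star was at 6.92, 7.53 and 6.86 CPM in the controls and at 8.49, 7.88 and 8.23 CPM in the bArKO libraries. Cyp7b1, which hydroxylates neurosteroids, was at 35.5, 32.7 and 28.7 CPM in the controls and at 35.9, 36.2 and 37.7 CPM in the bArKO libraries. Control 1 was all but level with bArKO 1, and the log2 fold change was 0.18 ± 0.096. Tspo, a mitochondrial protein gene, was at 4.70, 4.93 and 7.63 CPM in the controls and at 3.91, 5.22 and 3.50 CPM in the bArKO libraries. Its groups overlapped and control 3 was the highest. Cyp17a1, which makes androgens from progestogens, had 1, 0 and 0 counts in each group, and Sult1e1 and Hsd3b2 had 0 counts in all 6 libraries.

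Genes that estrogens are known to raise in other tissues did not move as a list. Of 24 members 21 were tested, 11 were higher and 10 lower, and the median log2 fold change was 0.011. Igf1, which encodes insulin-like growth factor 1, was at 7.75, 6.90 and 6.34 CPM in the controls and at 10.9, 9.35 and 8.44 CPM in the bArKO libraries. All bArKO libraries were over all controls, and the log2 fold change was 0.45 ± 0.14. Ctsd, the lysosomal protease cathepsin D, was at 203, 211 and 243 CPM in the controls and at 182, 186 and 193 CPM in the bArKO libraries. Every bArKO library was under every control, with a log2 fold change of -0.23 ± 0.071. The receptor kinase gene Ret was the other lower member at an unadjusted p under 0.05. At that p 1 member was higher and 2 were lower, beside 1.33% and 3.33% of all genes. The progesterone receptor gene Pgr, a classic target, was at 19.8, 21.5 and 20.9 CPM in the controls and at 24.1, 18.5 and 20.7 CPM in the bArKO libraries. Its groups overlapped.

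The neuropeptide gene Gal and the gene Greb1, both known estrogen targets, were too low for the test of 15094 genes. Gal had 2, 2 and 4 counts in the controls and 8, 10 and 7 counts in the bArKO libraries. Greb1 had 10, 5 and 6 counts in the controls and 2, 3 and 4 counts in the bArKO libraries. Neither had overlapping groups, but most values were within a few counts of the floor. With every gene of at least 1 count kept, neither was among the 188 genes called. The full estrogen response element, an inverted repeat with any 3 bases between its arms, was searched for on both strands and was in 0 of 23 windows of 250 bases, beside 0.0505% of all windows. Of 9 androgen-responsive genes 7 were tested with a median log2 fold change of 0.019, or -0.39 without bArKO 1. Only Ndrg1, a gene also active in oligodendrocytes, was lower at an unadjusted p under 0.05, beside 3.33% of all genes. It was at 106, 105 and 124 CPM in the controls and at 108, 71.0 and 84.5 CPM in the bArKO libraries, with bArKO 1 among the controls as in the myelin genes.

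Other fields of the hippocampus had small median differences. Dentate granule cell markers had a median log2 fold change of 0.061, with 11 of 12 higher and 1 at an unadjusted p under 0.05, beside 1.33% of all genes. Without control 3 the median was -0.027 and without bArKO 2 it was 0.0029, with 6 of 12 lower in each fit. The gene at that p was Il16, a cytokine gene that also has a neuronal form, at 38.4, 34.8 and 31.9 CPM in the controls and at 45.0, 50.1 and 42.2 CPM in the bArKO libraries. Every bArKO library was over every control, with a log2 fold change of 0.39 ± 0.088. Of 13 CA2 and CA3 markers 10 were higher, 3 at an unadjusted p under 0.05 beside 1.33% of all genes, with a median of 0.14. The cell adhesion gene Nectin3 was at 50.6, 47.8 and 52.8 CPM in the controls and at 59.1, 70.7 and 60.2 CPM in the bArKO libraries. Its groups did not overlap and bArKO 2 was the highest, with a log2 fold change of 0.33 ± 0.089. Socs2, a suppressor of cytokine signals, was at 9.31, 9.23 and 13.2 CPM in the controls and at 13.7, 16.4 and 12.2 CPM in the bArKO libraries. Control 3 lay within the bArKO range. Without bArKO 2, 1 CA2 and CA3 member was higher and 1 lower at that p, beside 0.903% and 2.66% of all genes in that fit.

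Interneurons, the inhibitory cells of all fields, had a median log2 fold change of -0.034 over 13 markers, with 0 at an unadjusted p under 0.05. Lhx6, a factor gene of interneurons from the medial ganglionic eminence, was at 14.1, 19.2 and 16.1 CPM in the controls and at 14.6, 14.7 and 13.7 CPM in the bArKO libraries. Cajal-Retzius cells, which secrete reelin, had 4 of 6 markers tested. Ndnf was at 25.1, 21.3 and 23.8 CPM in the controls and at 24.2, 30 and 29.3 CPM in the bArKO libraries. The calcium channel subunit gene Cacna2d2 was at 28.2, 21.7 and 28.0 CPM in the controls and at 19.8, 15.9 and 23 CPM in the bArKO libraries. Each overlapped, and they went in opposite directions, with log2 fold changes of 0.25 ± 0.11 and -0.41 ± 0.15.

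Of 23 presynaptic genes tested 19 were higher in bArKO, 4 at an unadjusted p under 0.05 beside 1.33% of all genes, and the list's median was a log2 fold change of 0.068. The groups did not overlap in the same 4, Syn2, Slc17a7, Cplx2 and Pclo, beside 3.49% of all genes, and in Rims2 on the lower side. Syn2, a synapsin of synaptic vesicles, was at 686, 676 and 651 CPM in the controls and at 733, 865 and 762 CPM in the bArKO libraries. Slc17a7, the vesicular glutamate transporter of cortical and hippocampal neurons, was at 1292, 1403 and 1265 CPM in the controls and at 1437, 1648 and 1418 CPM in the bArKO libraries. In both bArKO 2 was the highest, and log2 fold changes of 0.23 ± 0.075 and 0.19 ± 0.070 were 0.16 and 0.11 without it. No presynaptic gene kept that p without bArKO 2, and without control 3 the list's median was 0.0079 with 11 of 23 lower. The list's level was 8.59, 8.55 and 8.34 in the controls and 8.56, 8.50 and 8.51 in the bArKO libraries, with control 1 the highest and control 3 the lowest.

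Postsynaptic genes had 23 of 29 higher, 0 at an unadjusted p under 0.05 and a median log2 fold change of 0.036. Without control 3 the median was -0.032 and 19 of 29 were lower. Gabra5, a subunit of extrasynaptic GABA receptors, was at 209, 216 and 190 CPM in the controls and at 219, 236 and 218 CPM in the bArKO libraries. The groups lay side by side without overlap. Camk2a, the kinase of long-term potentiation, was at 7029, 7043 and 7499 CPM in the controls and at 7051, 8090 and 8404 CPM in the bArKO libraries, overlapping at bArKO 1. Nr4a3, an immediate early gene, was at 120, 119 and 118 CPM in the controls and at 137, 130 and 140 CPM in the bArKO libraries. It was the only one of 18 such genes at an unadjusted p under 0.05, beside 1.33% of all genes higher. Its log2 fold change was 0.19 ± 0.075, and the list's median was -0.031.

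Astrocytes and microglia differed little. The 14 astrocyte markers had a median log2 fold change of 0.034 with 0 at an unadjusted p under 0.05, and the 14 microglia markers had -0.037 with 1, beside 3.33% of all genes lower. Aldh1l1, a folate enzyme gene of astrocytes, was at 61.7, 67.6 and 76.7 CPM in the controls and at 58.5, 64.3 and 65.4 CPM in the bArKO libraries. Ctss, a lysosomal protease of microglia, was at 109, 113 and 106 CPM in the controls and at 95.2, 97.1 and 101 CPM in the bArKO libraries. Its groups did not overlap, with a log2 fold change of -0.16 ± 0.068, beside 3.72% of all genes lower without overlap. In 1 other microglia marker the groups did not overlap, on the higher side, beside 3.49% of all genes. The purine receptor gene P2ry12 of resting microglia was at 46.5, 43.7 and 47.1 CPM in the controls and at 43.6, 53.8 and 57.5 CPM in the bArKO libraries. Its lowest and highest values were those of bArKO 1 and 3.

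Vessel markers were mixed. Endothelial cells had a median log2 fold change of -0.046 over 12 members and mural cells had 0.13 over 11, or -0.057 without bArKO 2, with 0 at an unadjusted p under 0.05 in either. Vwf, the clotting factor gene of endothelium, was at 36.9, 42.7 and 26.1 CPM in the controls and at 17.9, 39.1 and 28.3 CPM in the bArKO libraries. Notch3, a receptor gene of smooth muscle and pericytes, was at 12.2, 12.5 and 13.5 CPM in the controls and at 14.1, 14.9 and 14.5 CPM in the bArKO libraries. The groups overlapped in Vwf and not in Notch3.

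Extracellular matrix genes were mixed. Of 58 tested 34 were higher in bArKO and the median log2 fold change was 0.031, or -0.054 without bArKO 2, with 2 higher and 3 lower at an unadjusted p under 0.05, beside 1.33% and 3.33% of all genes. The 3 lower ones, Col8a1, Col8a2 and Nid2, had their highest value in control 3. Col8a2, a collagen gene of basement membranes, was at 6.10, 3.76 and 41.5 CPM in the controls and at 2.39, 4.95 and 4.83 CPM in the bArKO libraries. Without control 3 its log2 fold change of -2.08 ± 0.83 was -0.29. The 2 higher ones, Fmod and Col12a1, had their highest value in bArKO 2. Col12a1, a collagen gene of connective tissue, was at 7.01, 6.09 and 5.40 CPM in the controls and at 7.54, 12.2 and 7.41 CPM in the bArKO libraries. Its groups did not overlap, and a log2 fold change of 0.56 ± 0.22 was 0.28 without bArKO 2. Perineuronal net genes had a median of 0.060 over 9 members, and Ncan, a proteoglycan gene of nets and astrocytes, was at 240, 223 and 231 CPM in the controls and at 238, 251 and 266 CPM in the bArKO libraries.

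Genes that the study found raised in old bArKO mice were also looked up. These were Ccn2, Col1a1, Dcn, Ogn and Slc17a6 in females and Rreb1 and Irx2 in males. Ccn2, a matricellular growth factor gene, was at 5.11, 6.00 and 4.71 CPM in the controls and at 5.25, 11.6 and 4.83 CPM in the bArKO libraries. The collagen gene Col1a1 was at 10.1, 5.47 and 8.31 CPM in the controls and at 7.06, 16 and 10.3 CPM in the bArKO libraries. Ogn, a small proteoglycan gene, was at 8.57, 5.47 and 11.9 CPM in the controls and at 7.44, 21.4 and 11 CPM in the bArKO libraries. In all 3 bArKO 2 was the highest and the other libraries overlapped, and without it log2 fold changes of 0.46 ± 0.29, 0.48 ± 0.31 and 0.62 ± 0.32 were -0.063, 0.12 and 0.088. Dcn, the gene of decorin, was at 23.7, 15.5 and 24.4 CPM in the controls and at 14, 26.6 and 26.0 CPM in the bArKO libraries. Rreb1, a zinc finger factor gene, was at 20.8, 31.2 and 43.5 CPM in the controls and at 33.6, 48.3 and 43.6 CPM in the bArKO libraries. Irx2, a homeobox gene on the habenula list, was at 1.24, 1.25 and 0 CPM in the controls and at 0, 0.367 and 0.823 CPM in the bArKO libraries. The groups overlapped in these 3 as well. Slc17a6 was given with the thalamus genes. With every gene of at least 1 count kept, Ogn and Slc17a6 were called, with log2 fold changes of 0.62 and -0.93.

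Interferon response genes differed more between libraries than between genotypes. Their level was 2.97, 2.27 and 2.94 in controls 1 to 3 and 2.03, 3.01 and 2.31 in bArKO 1 to 3. The 3 high libraries were those highest in thalamus, choroid plexus and meninges genes, and the 3 low ones came from both genotypes. Of 14 tested 11 were lower with a median log2 fold change of -0.22, and 1 had an unadjusted p under 0.05, beside 3.33% of all genes. With a library left out the median was -0.11, -0.46 and -0.13 for controls 1 to 3 and -0.065, -0.75 and -0.11 for bArKO 1 to 3. The gene at that p, Ifi27, was at 35.9, 26.4 and 61.5 CPM in the controls and at 23.9, 35.9 and 23.9 CPM in the bArKO libraries. Complement and antigen presentation genes had a median of -0.092 over 17 members. Their level was 3.69, 3.37 and 3.94 in the controls and 3.44, 3.90 and 3.64 in the bArKO libraries, with the same 3 libraries highest. Without control 3 the complement median was 0.010. Without controls 1 and 3 the medians of the interferon and complement lists were 0.22 and 0.29, with 3 of 14 and 4 of 17 lower. With the choroid plexus and thalamus covariates they were 0.18 and 0.24, and with the meninges level added they were -0.67 and -0.031.

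Energy and housekeeping genes differed little. Nuclear genes of oxidative phosphorylation had a median log2 fold change of -0.0020 over 23 members, 1 of them higher at an unadjusted p under 0.05, beside 1.33% of all genes. Cox5a, a subunit of cytochrome c oxidase, was at 25.5, 26.2 and 30.8 CPM in the controls and at 30.9, 31.7 and 31.3 CPM in the bArKO libraries. Control 3 was all but level with bArKO 1. Ribosomal proteins had a median of -0.0079 and cholesterol synthesis had 0.017, and Sc5d, an enzyme late in that pathway, was at 91.0, 82.9 and 85.9 CPM in the controls and at 91.5, 97.9 and 102 CPM in the bArKO libraries. Clock genes had 0.020, with the output factor Tef at 458, 443 and 468 CPM in the controls and at 478, 476 and 541 CPM in the bArKO libraries. Glucocorticoid-raised genes, heat shock genes and nuclear-retained RNA had medians of 0.019, 0.033 and -0.067. That of nuclear-retained RNA was -0.28 without control 1 and 0.24 without control 3. All 7 tested transcripts of the mitochondrial genome were higher, 0 at an unadjusted p under 0.05, with a median of 0.075. That median was -0.0074 without control 1 and -0.020 without bArKO 3, but 0.16 without bArKO 1 and 0.20 without control 3. Without control 3, 2 of these transcripts were higher at that p, beside 2.02% of all genes. The long noncoding RNA Neat1 of nuclear paraspeckles was at 53.3, 57.9 and 112 CPM in the controls and at 47.4, 46.6 and 65.1 CPM in the bArKO libraries, highest in control 3.

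The genotype difference of 6-month males was set beside that of 6-month females and of 24-month males, each with its own 3 libraries a group. Both interaction tests share the 6-month male libraries. The edgeR interaction of sex and genotype called 0 of 15094 genes after Benjamini-Hochberg adjustment, with 432 at an unadjusted p under 0.05 (2.86%), and that of age and genotype in males called 0 of 15693, with 531 (3.38%). With every gene of at least 1 count kept they called 81 and 123. For myelin genes the median log2 fold change was -0.35 in 6-month males, -0.0062 in 6-month females and 0.050 in 24-month males. Of the 18 members 6 had an unadjusted p under 0.05 in the test between sexes and 0 in that between ages. Taken in that order, the log2 fold change of Mal was -0.48 ± 0.15, -0.011 ± 0.15 and -0.044 ± 0.17, and Ugt8a had -0.40 ± 0.13, -0.040 ± 0.13 and 0.078 ± 0.19.

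Choroid plexus genes had medians of -3.29, -0.65 and 0.30 in the same order. Of 21 members 2 had an unadjusted p under 0.05 in the test between sexes, beside 2.86% of all genes. In the test between ages 14 had that p, beside 3.38% of all genes. Both tests include control 3. Igf1 had a log2 fold change of 0.45 ± 0.14 in 6-month males, -0.034 ± 0.14 in females and 0.019 ± 0.18 in 24-month males. For Esrrg these were -0.33 ± 0.10, -0.048 ± 0.10 and 0.11 ± 0.15, and for Tmem63a -0.53 ± 0.11, 0.075 ± 0.11 and 0.058 ± 0.15. Ryr1 had 0.56 ± 0.12, 0.069 ± 0.11 and 0.31 ± 0.19. None of these differences between sexes or ages passed in the tests of 15094 and 15693 genes, with an edgeR Benjamini-Hochberg adjusted p of 1.00 for each gene. Irx2 had -1.07 ± 1.21 at 6 months and 4.63 ± 1.30 at 24 months in males, with an edgeR adjusted p of 1.00 for the difference between ages.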

How the data were processed

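The authors trimmed reads with Trim Galore 0.6.10 and cutadapt 4.2, checked them with FastQC 0.12.0, aligned them to GRCm39 with STAR 2.7.9a and counted them per gene with HTSeq 2.0.2; the deposited values are these raw counts. The authors' own tests used R 4.1.1 and DESeq2 1.34.0.

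Columns were assigned to groups by their labels. Symbols came from GENCODE vM39 for 56630 of 57186 genes. Tests ran in R 4.3.3 with edgeR 4.0.16 and limma 3.58.1: TMM factors, filterByExpr, 1 coefficient per group over the 12 libraries of 6-month mice, the quasi-likelihood test and Benjamini-Hochberg adjustment over all genes tested. The age interaction used all 24 libraries. DESeq2 1.42.0 was an alternative, beside other scaling, count filters, library sets, covariates and libraries left out in turn. Tables and figures used Python 3.11.15, pandas 2.3.3 and matplotlib 3.10.9, and the code was tested on simulated data. List levels use CPM scaled over all 24 libraries and members with a mean of at least 0.1 CPM, and CPM of single genes is scaled over the 12 of the fit. Total counts in the series ran from 7615391 to 18872054, and the floor was 3 counts.

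Named genes are those of the estrogen system, the label checks, genes the study named in old mice, the 10 higher and 10 lower genes with the smallest p, absolute log2 fold change above 0.5 and groups that do not overlap, the 3 genes most in excess in each library among those with a mean of at least 1 CPM, the 5 most abundant choroid plexus and thalamus members, and up to 2 members of each other list. Calml4, Gal, Greb1, Gbx2, Star, Cyp17a1, Pgr, Ret, Col8a1, Nid2, Tspan2, Cnp, Mbp, Mog and Myrf were chosen after values were seen. Members and the 42 lists were chosen with earlier results of these data known.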

Additional observations from a re-analysis of the deposited data

Results flagged for a closer look

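In 4 of the named genes the 3 bArKO libraries lay on the same side of all controls in 6-month males and on the opposite side in 6-month females, as in 53 of all 15094 genes tested (0.351%). Groups that did not overlap in either sex, with the same direction in both, were about as common, in 52 genes (0.345%). Of the 4 named genes, Dgkk and Cdca8 were named because their male groups did not overlap. Il16 and Esrra were named for a small p in males among the members of their lists. In females the log2 fold change was -0.34 for Dgkk, -1.13 for Cdca8, -0.26 for Il16 and 0.19 for Esrra, and in males it was 1.42, 0.87, 0.39 and -0.17, the last of which was -0.079 without bArKO 2. The edgeR interaction of sex and genotype over 15094 genes did not pass for any of them, with a Benjamini-Hochberg adjusted p of 1.00 for each.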

How the results depend on the processing

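The 0 calls of edgeR, with 502 genes lower and 200 higher at an unadjusted p under 0.05, and the 0 calls of DESeq2 do not show that the groups are alike. Neighbouring tissue, the animal and the library cannot be told apart within a library, and a covariate fit assumes that a list measures its tissue alone and says nothing of that list's own members. Cyp19a1 and Esr2 were under the floor in all 6 libraries, and Gal had 2 to 10 counts. Of 1535 alternatives for 92 of the genes named, 1467 kept the direction and the side of the threshold, 37 in 21 genes reversed and 31 passed it; the cause was not tested. With some library left out the log2 fold change of 58 of the 92 was over 1.5 times smaller or of the opposite sign, the latter in 14.

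Called genes were 188 with every gene of at least 1 count, of which 177 were lower, 107 high in control 3 alone and 21 on the choroid plexus list, and 0 to 1 with each library left out. Genes at an unadjusted p under 0.05 were 309 of 28183 in DESeq2 and 397 of 14550 in edgeR on the 6 libraries alone. There were 1451 of 30929 in edgeR with at least 1 count and 548 to 1071 with a library left out. With at least 1 count the interaction calls were 81 for sex and 123 for age. As replicate numbers of mice do not pair (correlations of 0.165, -0.0422 and 0.135 for equal numbers), the replicate block is given only here, with 0 calls and 780 genes at that p. Genes high in a single library at 1.5 and 3 times were 65 and 7 in control 1, 38 and 0 in control 2, 492 and 91 in control 3, 19 and 0 in bArKO 1, 92 and 4 in bArKO 2 and 30 and 0 in bArKO 3.

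With each library left out, log2 fold changes ran from -0.19 to 0.37 for Esr1, -0.035 to 0.094 for Ddx3y, -0.063 to 0.67 for Ccn2, -0.11 to 0.31 for Dcn, -1.34 to 0.13 for Slc17a6, -2.11 to 1.53 for Shox2, -0.25 to 1.77 for Cdh1, -0.18 to 1.5 for Prg4, -0.83 to 0.61 for S100a9, -0.21 to 0.15 for Adarb1, -0.57 to 0.13 for Rora, -0.57 to 0.12 for Amotl1, -0.84 to 0.31 for Prkcd and -0.58 to 0.066 for Plekhg1. With the covariates they were 0.83 for Shox2, 0.62 for Cdh3, 0.18 for Prr32, 0.68 for Ttr, 0.12 for Prlr, 0.063 for Adarb1, 0.18 for Amotl1 and 0.081 for Prkcd. Without controls 1 and 3 they were -0.00486 for Gper1, 0.99 for Shox2, 1.17 for Prr32, 1.05 for Ttr, 0.34 for Clic6, 0.18 for Prlr, 0.11 for Adarb1, 0.077 for Rora, 0.28 for Amotl1, 0.21 for Prkcd and 0.11 for Col8a2.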
